A study of Mus musculus with 4 samples.

Results

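Immunoglobulin gene segments, the exon units from which antibody chains are assembled, were followed in RNA sequencing of neutrophils from mouse bone marrow. Members were chosen by summed count: they were the rows of the raw count table annotated as immunoglobulin constant (C), variable (V), diversity (D) or joining (J) genes with a summed raw count of at least 10 over the 4 libraries. The rule took 151 of 264 such rows, out of 54532 genes in the table. They were 11 C, 137 V and 3 J segments and 0 D segments. By locus there were 72 heavy-chain (Igh), 72 kappa (Igk) and 7 lambda (Igl) members. Of the rows left out, 50 had no count and 63 had between 1 and 9 counts. At the threshold, 5 rows just inside had a sum of 10, among them Ighv1-47 and Igkv5-45, and 9 rows just outside had a sum of 9, among them Ighv13-2 and Igkv3-9. The rule used the summed counts only, so that these segments were detected is a description and not a finding.

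Cells of the Aβ40 group had received amyloid-beta 40 (Aβ40), a peptide released from the amyloid precursor protein that deposits in vessel walls, at 20 µg/ml for 4 h. Cells of the DMSO group had received DMSO, a solvent. The labels give neutrophils of wild-type (WT) mice for both groups, and neither strain, age, sex nor the way of isolating the cells is given in the sources used here. Each group held 2 libraries, called here Aβ40 1, Aβ40 2, DMSO 1 and DMSO 2, and the series addressed how Aβ40 brings neutrophils to release extracellular traps. Whether separate animals or cultures stand behind the libraries is not stated. A p-value here therefore covers the spread between these samples alone, and that spread may be technical. Total counts ran from 17212264 to 19524125 per library, with 1 count worth 0.0523 to 0.0585 CPM (depth-scaled counts, with TMM as a correction for composition). The 14 neutrophil markers of the list, S100a8 and Ly6g among them, summed to 149460 and 141910 CPM in the Aβ40 libraries and 144930 and 103855 CPM in the DMSO libraries. The edgeR quasi-likelihood test called 0 of the 14 higher and 0 lower, beside 0.126% and 0% of all genes tested. With calls this rare, their absence here says little about neutrophil content. Both Aβ40 libraries exceeded both DMSO libraries in 14.3% of the 14 and lay below both in 28.6%. Of all genes tested, 23.2% and 21.9% did so.

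B lymphocytes build a heavy-chain gene by joining V, D and J segments and a light-chain gene, kappa or lambda, by joining V and J, with the proteins Rag1 and Rag2 cutting the DNA. The joined unit is transcribed together with a constant region. Ighm and Ighd encode the constant regions of IgM and IgD, which B cells carry on their surface before class switching, and Ighg, Igha and Ighe encode those of IgG, IgA and IgE. Plasma cells, which lodge in bone marrow, make secreted antibody and hold very large amounts of immunoglobulin RNA. Neutrophils are not classed as antibody-producing cells, but they carry receptors for the antibody tail.

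Immunoglobulin members took 0.220% and 0.238% of all counts in the Aβ40 libraries and 0.166% and 0.183% in the DMSO libraries. Constant regions made up 136050 of the 148396 member counts, V segments 12265 and J segments 81. After the low-count filter 91 members were tested, namely 11 C, 79 V and 1 J segments, and 60 were too low. At an adjusted p under 0.05, 2 of the 91 rose with Aβ40 (Ighd and Iglc3) and 0 fell, where 0.126% of the 13479 genes tested rose and 0% fell (edgeR quasi-likelihood test, Benjamini-Hochberg). At an unadjusted p under 0.05 the counts were 19 higher and 1 lower, against 6.51% and 5.72% of all genes tested. DESeq2 called 6 members higher (Ighd, Ighm, Iglc1, Iglc2, Iglc3 and Iglv1) and 0 lower among the 40 to which it gave an adjusted p, against 0.829% and 0.321% of all genes. In 40 of 91 members both Aβ40 libraries exceeded both DMSO libraries, and in 3 both lay below, where 23.2% and 21.9% of all genes tested did so. The median log2 fold change was 0.76 over the members tested and 0.01 over all genes tested. A member could pass the low-count filter through its higher group alone, so neither this median nor these counts speak for all 151 members. RNA of whole samples was measured, so more cells of a type and more RNA per cell cannot be told apart.

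**Figure D1:**
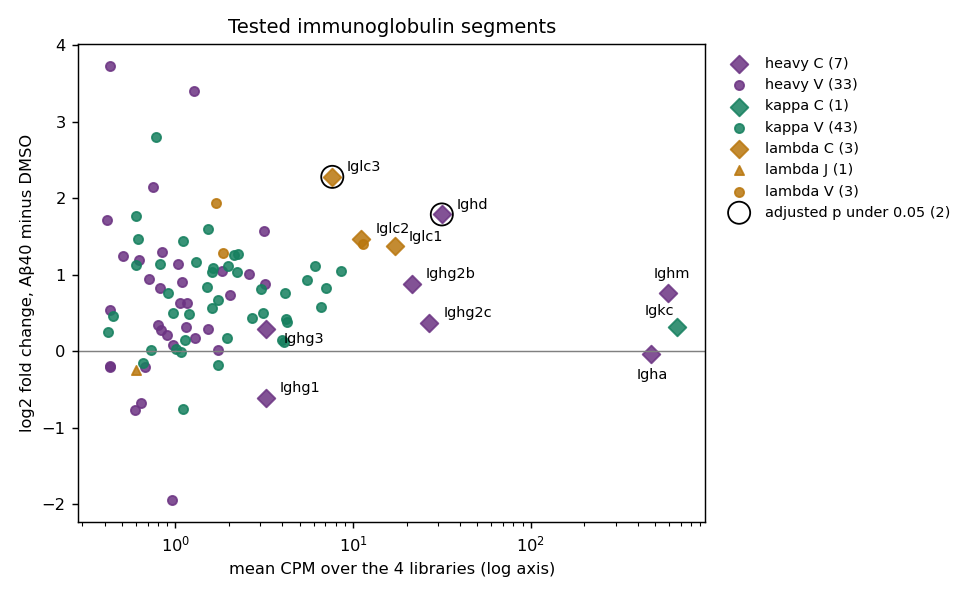
Each point is 1 of the 91 immunoglobulin segments tested, with its mean level in CPM over the 4 libraries on a log axis and its log2 fold change, Aβ40 minus DMSO, on the vertical axis; rings mark adjusted p under 0.05. Ighd at 1.79 and Iglc3 at 2.28 are ringed, and the abundant Ighm, Igkc and Igha lie to the right at 0.77, 0.31 and −0.03.

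DMSO 1 stood apart in the V segments, and this touches every V result that follows. It held the lowest CPM of the 4 libraries in 93 of 137 V members. Among C members it was also lowest in Ighm, Ighd, Ighg2c, Ighg2b, Iglc1 and Iglc2, and not in Igha, Igkc, Iglc3, Ighg1 and Ighg3. The share over all genes was not counted. The V members listed at 0 counts numbered 2 in Aβ40 1, 8 in Aβ40 2, 35 in DMSO 1 and 3 in DMSO 2. The median log2 fold change of the V members tested was 0.76 over all 4 libraries, 0.34 without DMSO 1 and 1.44 without DMSO 2. It was 0.36 without Aβ40 1 and 0.87 without Aβ40 2. Over all genes tested the median lay between −0.0076 and 0.015 in the fits with a library left out. The pairs were not repeats of a library, since chi-square divided by its degrees of freedom, over V rows, was 4.35 for the Aβ40 pair and 4.77 for the DMSO pair. Over C rows it was 19.1 for the Aβ40 pair and 59.5 for the DMSO pair, and over all genes 15.6 and 51.4. By this measure the DMSO libraries differed more than the Aβ40 libraries over C rows and over all genes, and about as much over V rows. It scales each pair to its own summed counts over the rows used, so the lower V sum of DMSO 1 does not enter it. It also grows with the counts, so its values for V rows, C rows and all genes cannot be compared with one another.

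Among heavy-chain constant regions Ighd, the IgD gene, rose 3.46-fold with Aβ40 and Igha, the IgA gene, differed by less than its error. Ighd (ENSMUSG00000104213, mm10, chr12:113406604-113416324, minus strand) had 46.4 and 51.7 CPM in the Aβ40 libraries, against 12.8 and 15.6 CPM in the DMSO libraries. Both Aβ40 libraries lay far above both DMSO libraries, with means of 49.0 ± 3.74 and 14.2 ± 2.01 CPM (SD, n = 2 each). The log2 fold change was 1.79 (SE 0.21, adjusted p = 0.028 by the edgeR quasi-likelihood test with Benjamini-Hochberg adjustment). Without Aβ40 1 the adjusted p was 0.999 and without Aβ40 2 it was 0.799 in the same edgeR test, while over all libraries left out in turn the log2 fold change stayed between 1.65 and 1.93. Limma on log2(FPKM + 1) gave an adjusted p of 0.146.

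Ighm (ENSMUSG00000076617, chr12:113418558-113422730, minus strand), the IgM gene, lies just upstream of Ighd and shares its transcription start with it. Ighm had 755 and 741 CPM in the Aβ40 libraries, against 395 and 483 CPM in the DMSO libraries. The groups did not overlap, and the difference of 0.77 on the log2 scale (SE 0.19) did not pass the edgeR quasi-likelihood test (Benjamini-Hochberg adjusted p = 0.247), though DESeq2 gave an adjusted p of 0.014. The log2 fold change of Ighd was larger than that of Ighm, a difference that was not itself tested. Ighd took 5.79% (95% Clopper-Pearson interval 5.40 to 6.19) and 6.52% (6.13 to 6.92) of the Ighm and Ighd counts in the Aβ40 libraries. In the DMSO libraries it took 3.13% (2.75 to 3.54) and 3.13% (2.78 to 3.50). Group means were 6.15% ± 0.515 with Aβ40 and 3.13% ± 0.00104 with DMSO (SD, n = 2 each). The intervals cover counting error only, and with 2 libraries against 2 a two-sided exact permutation test cannot go below 0.333, so no share was tested.

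Igha (ENSMUSG00000095079, chr12:113254830-113260236, minus strand) had 423 and 512 CPM in the Aβ40 libraries and 539 and 416 CPM in the DMSO libraries. The groups overlapped, and the log2 fold change was −0.03 with a 95% interval of −0.50 to 0.43. As a share of all heavy constant counts, Igha made up 35.1% ± 3.29 with Aβ40 and 48.9% ± 8.10 with DMSO (SD, n = 2 each). Ighm made up 56.3% ± 3.01 with Aβ40 and 45.0% ± 7.10 with DMSO (SD, n = 2 each).

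The 4 IgG genes were far lower, and none passed the test. Ighg2b had 31.5 and 23.9 CPM in the Aβ40 libraries, against 13.2 and 16.8 CPM in the DMSO libraries, a log2 fold change of 0.88 (SE 0.24, adjusted p = 0.265 by the edgeR quasi-likelihood test with Benjamini-Hochberg adjustment). Ighg2c, the IgG2a counterpart of some mouse strains, had 28.4 and 32.1 CPM with Aβ40 and 19.5 and 27.2 CPM with DMSO. Ighg3 had 3.33 and 3.77 CPM with Aβ40, against 3.11 and 2.69 CPM with DMSO. Ighg1 was the only constant region with both Aβ40 libraries below both DMSO libraries, at 2.87 and 2.25 CPM with Aβ40 and 4.50 and 3.28 CPM with DMSO, and its log2 fold change was −0.61 (SE 0.40). Summed over the 4 genes, IgG took 4.83% ± 0.414 of heavy constant counts with Aβ40 and 4.63% ± 0.775 with DMSO (SD, n = 2 each). The IgE gene Ighe had 0 counts in every library, which allows up to 3 counts, or between 0.157 and 0.175 CPM, in each.

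**Figure D2:**
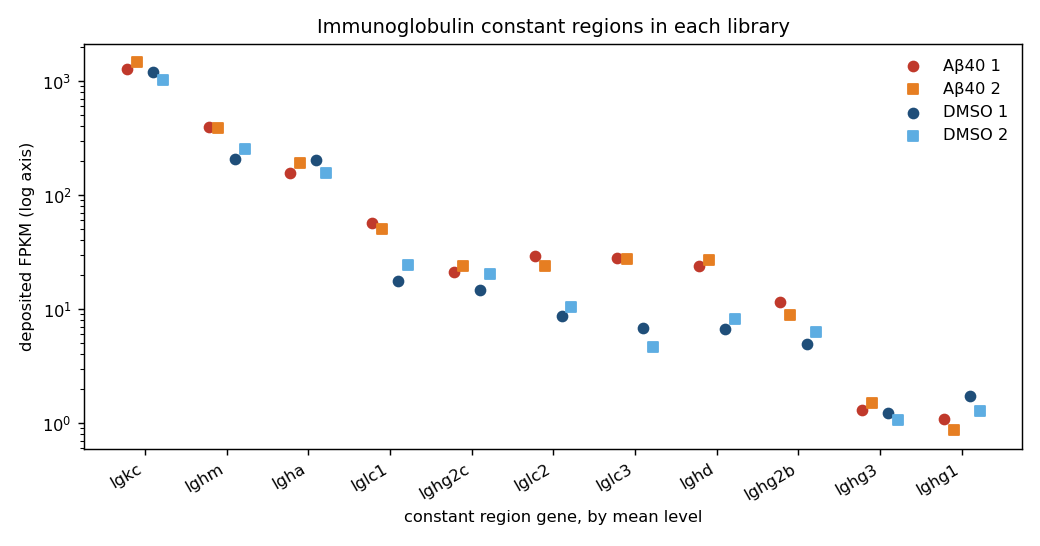
Deposited FPKM of the 11 constant region members in each library, on a log axis, ordered by their mean over the 4 libraries. Igkc leads at a mean of 1238 FPKM, and the gaps between the Aβ40 and DMSO points are widest for Iglc3 and Ighd.

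Levels between genes can be compared per gene length, in the deposited FPKM (fragments per kilobase of gene, scaled to depth). That length is the annotated one, 1326 bases for Ighg2c and 2678 for Ighg2b, so the order below also rests on the annotation. The kappa constant region Igkc averaged 1238 FPKM over the 4 libraries, Ighm 311 and Igha 176. Iglc1 averaged 37.3, Ighg2c 20.0, Iglc2 18.0, Iglc3 16.7, Ighd 16.4 and Ighg2b 7.88 FPKM, and Ighg3 and Ighg1 averaged 1.27 and 1.23 FPKM. The ranges over the 4 libraries overlapped between neighbours from Iglc1 to Ighg2b in this order and between Ighg3 and Ighg1, and did not overlap between the other neighbours. Ighd stood at 24.0 and 26.9 FPKM in the Aβ40 libraries, against 6.69 and 8.17 FPKM in the DMSO libraries. Ighg2c stood at 21.1 and 23.9 FPKM with Aβ40 and 14.7 and 20.4 FPKM with DMSO, so Ighd was above Ighg2c in both Aβ40 libraries and below it in both DMSO libraries.

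Of the light chains, lambda constant regions were higher with Aβ40 in all 3 genes and Iglc3 rose, while kappa did not pass the test. Igkc (ENSMUSG00000076609, chr6:70726435-70726966, plus strand) had 688 and 785 CPM in the Aβ40 libraries, against 646 and 541 CPM in the DMSO libraries. The groups did not overlap but lay close, and the log2 fold change of 0.31 (SE 0.19) did not pass the test. Iglc3 (ENSMUSG00000105547, chr16:19065230-19065681, minus strand) had 12.9 and 12.5 CPM in the Aβ40 libraries, against 3.11 and 2.10 CPM in the DMSO libraries. The Aβ40 libraries nearly coincided and stood well above both DMSO libraries, and the log2 fold change was 2.28 (SE 0.31, adjusted p = 0.038 by the edgeR quasi-likelihood test with Benjamini-Hochberg adjustment). Without Aβ40 1 and without Aβ40 2 the adjusted p of Iglc3 was 0.999 and 0.799 in the edgeR test, and limma on log2(FPKM + 1) gave 0.121. Its log2 fold change over the libraries left out in turn ran from 2.02 to 2.59.

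Iglc1 (chr16:19061618-19062071) had 26.4 and 23.1 CPM with Aβ40, against 7.99 and 11.1 CPM with DMSO, a log2 fold change of 1.37 (SE 0.24, adjusted p = 0.104 by the edgeR quasi-likelihood test with Benjamini-Hochberg adjustment). Iglc2 (chr16:19198396-19200351) had 18.0 and 14.8 CPM with Aβ40, against 5.36 and 6.45 CPM with DMSO, a log2 fold change of 1.47 (SE 0.25, adjusted p = 0.0996 by the edgeR quasi-likelihood test with Benjamini-Hochberg adjustment). Neither gene's groups overlapped, and DESeq2 called both at adjusted p of 0.0024 and 0.0049.

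Iglc2 and Iglc3 are near-identical copies, so the split of reads between them is uncertain. Aligned from the start of the constant exon, their transcripts in GENCODE M21 (build GRCm38, the same as mm10) are 96.3% identical, while Iglc1 is 74.8% identical to Iglc3 and 74.1% to Iglc2. Of all 50-base stretches of the transcript, 77.7% in Iglc3 and 92.3% in Iglc2 occur in no other gene, against 100% in Iglc1, Ighd, Ighm and Igkc. The first 90 bases of the constant exon, 5′ to 3′ on the coding strand, show how few positions separate the copies; capitals mark the 5 bases at which they differ.
Iglc3: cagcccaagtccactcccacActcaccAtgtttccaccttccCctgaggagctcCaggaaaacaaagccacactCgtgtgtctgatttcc
Iglc2: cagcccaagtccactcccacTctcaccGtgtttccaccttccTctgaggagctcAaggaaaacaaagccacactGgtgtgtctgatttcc
A sum does not depend on that split, though reads left out for matching both copies would be missing from it. Summed, the 3 lambda constant regions had 57.3 and 50.4 CPM with Aβ40, against 16.5 and 19.6 CPM with DMSO. The mean with Aβ40 was 2.98 times the mean with DMSO. Lambda made up 7.69% (95% Clopper-Pearson interval 7.23 to 8.16) and 6.07% (5.71 to 6.45) of light-chain constant counts in the Aβ40 libraries, and 2.49% (2.22 to 2.78) and 3.50% (3.15 to 3.87) in the DMSO libraries. Group means were 6.88% ± 1.14 with Aβ40 and 2.99% ± 0.716 with DMSO (SD, n = 2 each). A further constant row, Iglc4, was no member, with 7 counts in Aβ40 2 and 0 in the other libraries.

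**Figure D3:**
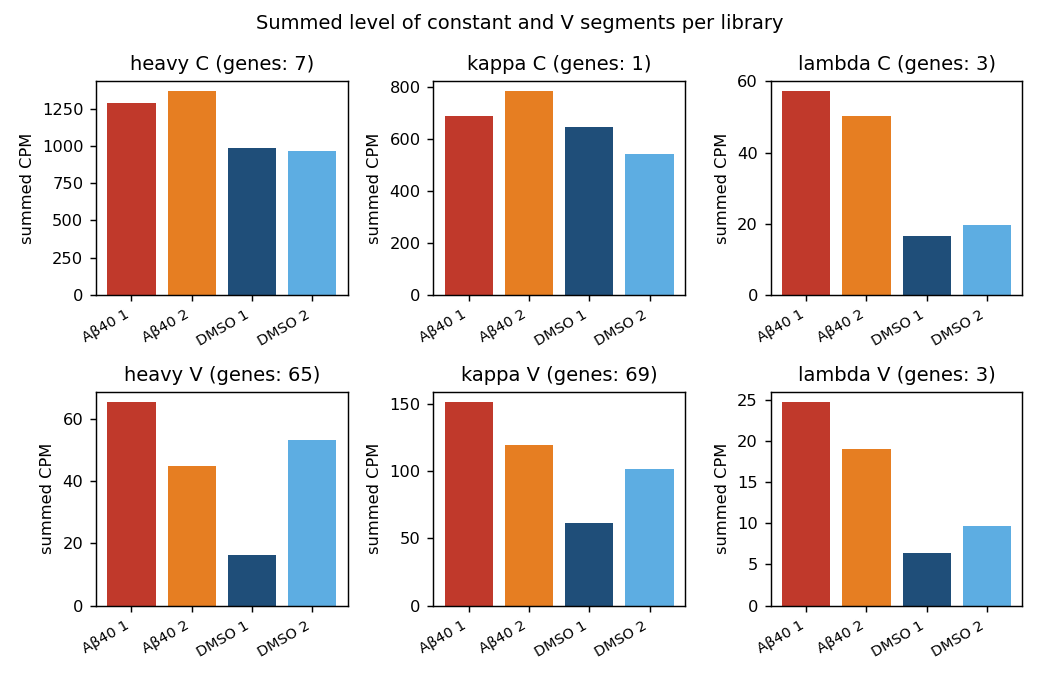
Summed CPM of the constant (top) and V (bottom) members of each locus in each library; every axis starts at 0. Lambda C and lambda V stand higher in both Aβ40 libraries, while heavy V has 53.3 CPM in DMSO 2 between the 65.5 and 44.9 CPM of the Aβ40 libraries and only 16.4 CPM in DMSO 1.

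V segments carry the antigen-binding part of each chain, and no V segment passed the test at any locus. Iglv1 (chr16:19085017-19085500) had 19.9 and 13.2 CPM with Aβ40, against 5.52 and 6.99 CPM with DMSO, a log2 fold change of 1.40 (SE 0.29, adjusted p = 0.159 by the edgeR quasi-likelihood test with Benjamini-Hochberg adjustment, DESeq2 0.017). Iglv3 had 2.63 and 2.62 CPM with Aβ40 and 0.697 and 1.45 CPM with DMSO. Iglv2 had 2.22 and 3.19 CPM with Aβ40 and 0.161 and 1.24 CPM with DMSO. In all 3 both Aβ40 libraries exceeded both DMSO libraries, where 23.2% of all genes tested did so. Iglv1 took 80.4% and 69.5% of lambda V counts in the Aβ40 libraries and 86.6% and 72.2% in the DMSO libraries, so its part overlapped between groups. Lambda as a whole made up 13.7% ± 0.212 of light-chain V counts with Aβ40 and 9.02% ± 0.589 with DMSO (SD, n = 2 each). Iglv1 and Iglv2 are 96.7% identical, and the first 90 bases of the mature V exon show it; capitals mark the 2 bases at which they differ.
Iglv1: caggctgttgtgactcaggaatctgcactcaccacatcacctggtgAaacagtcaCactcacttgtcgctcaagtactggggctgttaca
Iglv2: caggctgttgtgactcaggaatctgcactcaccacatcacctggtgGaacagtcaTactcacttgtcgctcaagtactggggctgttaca

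Kappa V segments, 69 members of which 43 were tested, summed to 151 and 120 CPM in the Aβ40 libraries, against 61.1 and 102 CPM in the DMSO libraries. Both Aβ40 sums lay above both DMSO sums. The mean with Aβ40 was 1.67 times that with DMSO, 1.33 times without DMSO 1 and 2.22 times without DMSO 2. In 20 of 43 tested segments both Aβ40 libraries exceeded both DMSO libraries and in 0 both lay below, beside 23.2% and 21.9% of all genes tested. The median log2 fold change of the 43 was 0.76. That median was 0.43 without DMSO 1 and 1.24 without DMSO 2. A segment could pass the low-count filter through its higher group alone, so these counts and medians do not speak for all 69 members.

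Igkv14-126 (chr6:67896172-67896642), the kappa V segment with the highest summed count, had 11.5 and 11.7 CPM with Aβ40, against 4.72 and 6.51 CPM with DMSO, a log2 fold change of 1.05 (SE 0.28, adjusted p = 0.263 by the edgeR quasi-likelihood test with Benjamini-Hochberg adjustment). Igkv1-117 had 11.1 and 7.01 CPM with Aβ40, against 4.40 and 5.81 CPM with DMSO. Igkv1-135 had 9.83 and 6.96 CPM with Aβ40, against 3.43 and 4.30 CPM with DMSO. In these 3 segments the groups did not overlap. In Igkv10-96 they did, with 8.66 and 7.11 CPM in the Aβ40 libraries and 2.84 and 7.74 CPM in the DMSO libraries. Among kappa V segments with at least 100 counts, Igkv9-124 had the lowest log2 fold change, −0.18 (SE 0.51), with 1.64 and 1.62 CPM with Aβ40 and 2.20 and 1.51 CPM with DMSO. Igkv4-59 had the highest, 1.60 (SE 0.89), through Aβ40 1 alone, since its CPM were 3.98 and 0.628 with Aβ40 and 0.375 and 1.13 with DMSO. Only 25.7% of the 50-base stretches of Igkv4-59 occur in no other gene, against 100% for Igkv14-126.

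Heavy-chain V segments, 65 members of which 33 were tested, did not separate by group. Their sums were 65.5 and 44.9 CPM in the Aβ40 libraries and 16.4 and 53.3 CPM in the DMSO libraries, so DMSO 2 lay between the Aβ40 libraries. The mean with Aβ40 was 1.58 times that with DMSO, 1.04 times without DMSO 1 and 3.36 times without DMSO 2. The median log2 fold change of the 33 was 0.64, 0.07 without DMSO 1 and 2.00 without DMSO 2. In 8 of 33 both Aβ40 libraries exceeded both DMSO libraries and in 2, Ighv1-85 and Ighv1-52, both lay below, which is 24.2% and 6.06% of them, beside 23.2% and 21.9% of all genes tested. The same low-count filter applies, so these values do not speak for all 65 members.

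Ighv1-75 (chr12:115833950-115834418) had 5.03 and 4.45 CPM with Aβ40, against 0.161 and 3.01 CPM with DMSO, a log2 fold change of 1.57 (SE 0.84). Its DMSO values lay far apart, at 3 and 56 counts, and the log2 fold change was 0.65 without DMSO 1 and 4.81 without DMSO 2. Ighv1-26 (chr12:114788372-114788805) had 6.08 and 2.20 CPM with Aβ40 and 0.536 and 3.93 CPM with DMSO, and the groups overlapped. The groups also overlapped in Ighv1-55 and Ighv1-64. Ighv1-55 had 5.09 and 1.88 CPM with Aβ40 and 0.858 and 2.58 CPM with DMSO, and Ighv1-64 had 2.75 and 2.35 CPM with Aβ40 and 0.697 and 2.37 CPM with DMSO. Ighv3-6 (chr12:114288152-114288582) was level, with 31 and 32 counts in the Aβ40 libraries and 32 and 32 in the DMSO libraries, a log2 fold change of 0.02 (SE 0.50). With the same 32 counts it was 10.3% of all heavy V counts in DMSO 1 and the most counted heavy V segment there.

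**Figure D4:**
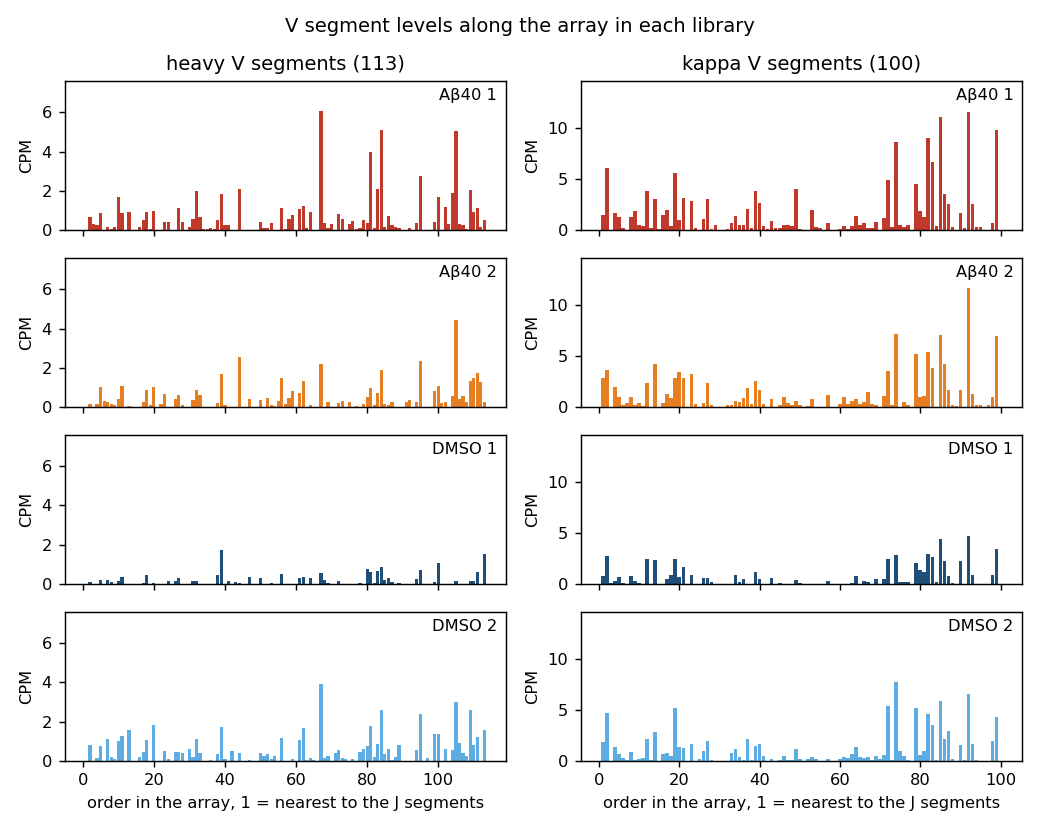
CPM of the 113 heavy and 100 kappa V rows in each library, as bars in their order along the chromosome with the row nearest to the J segments at 1; the vertical axes are shared down a column. The Aβ40 1, Aβ40 2 and DMSO 2 panels have many bars of uneven height along both arrays, and DMSO 1 has fewer and lower ones.

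V segments end in a short coding stretch that holds the conserved cysteine of the V domain, after which the D or J segment is joined. The last 60 germline bases, 5′ to 3′ on the coding strand, are shown for Iglv1 and for each heavy or kappa segment that was the most counted of its locus in some library, with the cysteine codon in capitals.
Ighv1-75: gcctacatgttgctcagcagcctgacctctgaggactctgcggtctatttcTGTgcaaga
Ighv1-26: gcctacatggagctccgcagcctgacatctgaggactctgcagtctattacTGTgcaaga
Ighv3-6: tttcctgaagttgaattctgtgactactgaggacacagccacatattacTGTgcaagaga
Igkv14-126: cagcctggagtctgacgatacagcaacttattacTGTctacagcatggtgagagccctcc
Igkv10-96: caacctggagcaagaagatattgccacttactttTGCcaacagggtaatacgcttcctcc
Iglv1: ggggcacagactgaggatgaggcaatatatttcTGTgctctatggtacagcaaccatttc
The heavy segments differ from the kappa and lambda ones in how many bases follow the codon, and the Ighv1 segments resemble one another closely. Ighv1-75 is 96.3% identical to Ighv1-84 and Ighv1-26 is 96.9% identical to Ighv1-18. Of their 50-base stretches, 57.1% and 51.0% occur in no other gene, so their single values are less certain than family sums. Across heavy V rows the median of that measure was 76.8% for members and 79.6% for rows that were not members, and across kappa V rows it was 74.7% for members and 74.1% for the others.

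V usage was spread over many segments in every library. The Ighv1 family, the largest mouse heavy V family, took 65.2% and 64.4% of heavy V counts in the Aβ40 libraries and 55.8% and 62.4% in the DMSO libraries. The 38 heavy V rows farthest from the J segments took 48.8% and 48.3% with Aβ40 and 50% and 48.1% with DMSO. The effective number of heavy V segments, the exponential of the Shannon entropy of their counts, was 44.2 and 45.3 with Aβ40 and 32.9 and 49.3 with DMSO. For kappa it was 41.7 and 41.3 with Aβ40 and 35.0 and 40.3 with DMSO. DMSO 1 was lowest at both loci. The effective number was not brought to equal depth, but the number of rows with a count was, treating counts as independent draws. At 312 heavy V counts, the number in DMSO 1, the expected number of rows with a count was 64.3 and 62.3 in the Aβ40 libraries, 49 in DMSO 1 and 64.1 in DMSO 2. At 1142 kappa V counts it was 77.3 and 74.2 in the Aβ40 libraries, 56 in DMSO 1 and 73.8 in DMSO 2. The most counted segment took between 7.01% and 10.3% of heavy V counts and between 7.47% and 9.60% of kappa V counts in a library.

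Set against the constant region of the same locus, heavy V rows gave 5.29 and 3.45 counts per 100 constant counts in the Aβ40 libraries and 1.69 and 5.80 in the DMSO libraries. Kappa V rows gave 22.4 and 15.5 with Aβ40 and 9.48 and 19.0 with DMSO. Lambda V rows gave 43.3 and 37.5 with Aβ40 and 38.8 and 49.3 with DMSO. At heavy and kappa DMSO 1 was the lowest of the 4 and DMSO 2 lay within or above the Aβ40 values, whereas at lambda the groups overlapped with DMSO 1 inside the Aβ40 range. These ratios are of counts and are not per gene length.

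D and J segments left hardly any counts. The 19 D rows, 10 to 29 bases long, had 1 count in all over the 4 libraries. An example of their length is Ighd1-1, of 23 bases.
Ighd1-1: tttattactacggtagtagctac
The J segments are shown for the 3 members; capitals mark TTCGG, which spells the first bases of the conserved phenylalanine-glycine motif of light-chain J segments in 4 of 5 kappa and 4 of 5 lambda J rows, searched on the coding strand only.
Iglj1: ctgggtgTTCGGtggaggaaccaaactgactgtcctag
Igkj1: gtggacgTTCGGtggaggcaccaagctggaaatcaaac
Igkj3: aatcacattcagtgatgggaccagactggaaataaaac
Iglj1 (chr16:19063225-19063262) had 17 and 2 counts in the Aβ40 libraries and 9 and 15 in the DMSO libraries, and its log2 fold change of −0.25 (SE 1.00) was far inside its error. Igkj3 (chr6:70723223-70723260), in which these letters were not found, had 14 and 4 counts with Aβ40 and 0 and 6 with DMSO. Igkj1 (chr6:70722562-70722599) had 2 and 0 counts with Aβ40 and 3 and 9 with DMSO. Both kappa J segments were too low to test.

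Other genes of B cells are set beside these values. Of 18 B lineage genes tested, 4 rose (Cd79a, Cd79b, Fcrla and Ms4a1) and 0 fell, beside 0.126% and 0% of all genes tested. Their median log2 fold change was 1.38. Both Aβ40 libraries exceeded both DMSO libraries in 83.3% of them, where 23.2% of all genes did so. Their summed level was 766 and 805 CPM with Aβ40, against 330 and 424 CPM with DMSO. Pax5, the factor that maintains B cell identity, had 46.6 and 62.1 CPM with Aβ40 and 21.4 and 16.1 CPM with DMSO. It did not pass the edgeR quasi-likelihood test (Benjamini-Hochberg adjusted p = 0.061).

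Of 19 genes of precursor B cells and V(D)J recombination tested, 2 rose (Vpreb1 and Vpreb3) and 0 fell, with a median of 1.18, beside the same 0.126% and 0% of all genes tested. Vpreb1, part of the surrogate light chain that pairs with the IgM heavy chain before a light chain is made, had 15.1 and 15.4 CPM with Aβ40, against 3.48 and 3.98 CPM with DMSO. Its partner Igll1 had 22.8 and 20.6 CPM with Aβ40, against 7.24 and 9.79 CPM with DMSO, and missed the threshold. Rag1 had 16.3 and 11.8 CPM with Aβ40, against 2.68 and 3.76 CPM with DMSO (log2 fold change 2.12, SE 0.31, adjusted p = 0.059 by the edgeR quasi-likelihood test with Benjamini-Hochberg adjustment). In each of these 3 genes, and in 73.7% of the 19, both Aβ40 libraries exceeded both DMSO libraries, where 23.2% of all genes tested did so.

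Of 16 genes of plasma cells and antibody secretion tested, 1 rose and 0 fell, with a median of 0.37, against 0.126% and 0% over all genes tested. In 62.5% of the 16 both Aβ40 libraries exceeded both DMSO libraries and in 6.25% both lay below. Of all genes tested, 23.2% and 21.9% did so. The gene that rose was Mzb1, a chaperone of the endoplasmic reticulum that marginal zone B cells and plasma cells share, with 25.9 and 27.7 CPM with Aβ40 and 8.04 and 8.50 CPM with DMSO. Jchain, which links the chains of secreted IgM and IgA, had 247 and 254 CPM with Aβ40 and 280 and 157 CPM with DMSO, and the groups overlapped. Xbp1, a factor of the secretory programme, differed by 0.09 (SE 0.17) and Sdc1, the plasma cell surface protein CD138, by 0.49 (SE 0.27) on the log2 scale. Of 10 genes of class switching and hypermutation, 0 rose and 0 fell, with a median of 0.10. In 20% of these both Aβ40 libraries exceeded both DMSO libraries and in 30% both lay below.

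**Figure D5:**
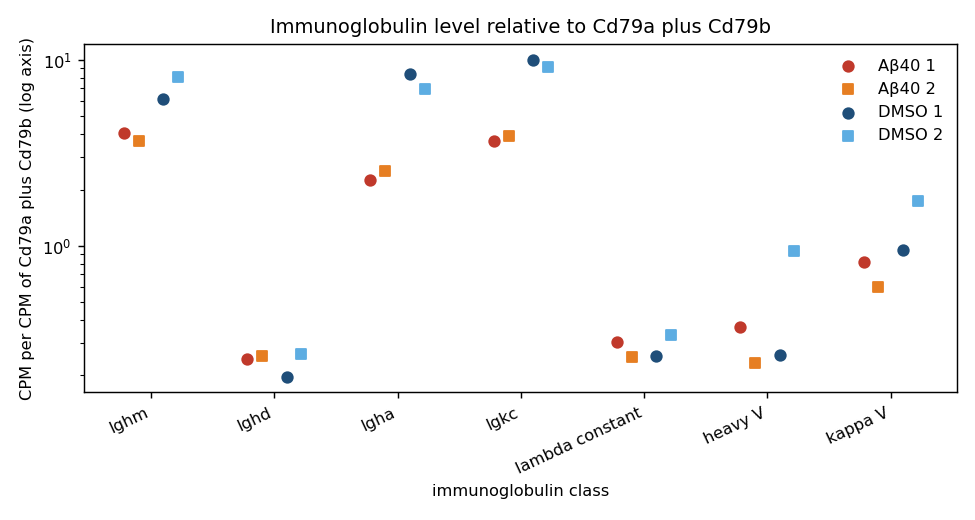
CPM of immunoglobulin genes or classes per CPM of Cd79a plus Cd79b in each library, on a log axis. Ighd lies between 0.197 and 0.262 and the lambda constant sum between 0.251 and 0.330 in all 4 libraries. Relative to this pair, which itself rose with Aβ40, Ighm, Igha, Igkc and kappa V lie lower in both Aβ40 libraries than in both DMSO libraries, and heavy V overlaps.

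Cd79a and Cd79b encode the signalling chains that accompany every surface immunoglobulin, and their joint level was 188 and 202 CPM in the Aβ40 libraries, against 64.7 and 59.5 CPM in the DMSO libraries. Per CPM of this pair, Ighd stood at 0.247 and 0.255 with Aβ40 and 0.197 and 0.262 with DMSO, and the groups overlapped. The lambda constant sum stood at 0.304 and 0.251 with Aβ40 and 0.254 and 0.330 with DMSO, again with overlap. Igha stood at 2.25 and 2.53 with Aβ40, against 8.33 and 6.99 with DMSO, and Igkc at 3.66 and 3.88 with Aβ40, against 9.98 and 9.09 with DMSO. Ighm too was lower in both Aβ40 libraries, at 4.01 and 3.66 with Aβ40 and 6.11 and 8.11 with DMSO. Kappa V was also lower in both, at 0.820 and 0.600 with Aβ40 and 0.946 and 1.73 with DMSO. Heavy V stood at 0.363 and 0.233 with Aβ40 and 0.258 and 0.940 with DMSO, with overlap. These ratios compare libraries within a gene. They do not compare genes, and none was tested. The pair itself was called as rising with Aβ40, so a gene or class that rose less than the pair must come out lower here. In CPM, Ighm, Igkc and kappa V were higher in both Aβ40 libraries, and Igha overlapped.

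Among markers of further cell types of marrow few genes passed the test, and their part in the immunoglobulin values was not tested. Of 16 T and NK cell genes tested 1 rose (Gzmb) and 0 fell, with a median of 1.30, and of 10 eosinophil genes 1 rose (Ear6) and 0 fell, with a median of 1.20, beside 0.126% and 0% of all genes tested and a median of 0.01. T and NK cell genes summed to 137 and 151 CPM with Aβ40, against 87.2 and 82.7 CPM with DMSO, and eosinophil genes to 3684 and 3742 CPM with Aβ40, against 1687 and 1405 CPM with DMSO. No gene passed the test in the monocyte and macrophage, erythroid, basophil and mast cell or plasmacytoid dendritic cell lists, whose medians were 0.29, −0.03, 0.65 and 0.39. Both Aβ40 libraries exceeded both DMSO libraries in 81.25% of T and NK cell genes tested and 100% of eosinophil genes, and in 0% of either both lay below. In the other lists, in the order given, 54.5%, 33.3%, 75% and 75% lay above and 18.2%, 11.1%, 0% and 12.5% below. Over all genes tested the shares were 23.2% and 21.9%. Such separation was thus not particular to the B cell lists. The constant regions of the T cell receptor, built by the same recombination in T cells, had log2 fold changes of 1.40 (Trbc1), 1.06 (Trbc2) and 1.37 (Trac), none of them called. Of 18 T cell receptor rows with at least 10 counts, these 3 could be tested.

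Receptors and factors that act on immunoglobulin showed no call. Of 9 immunoglobulin receptor genes tested, 0 rose and 0 fell, beside 0.126% and 0% of all genes tested. With so few calls over the whole table, a short list without a call says little. In 66.7% of the receptor genes both Aβ40 libraries exceeded both DMSO libraries and in 0% both lay below. Of all genes tested, 23.2% and 21.9% did so. Fcer1g, the signalling chain shared by receptors for the antibody tail, had 1039 and 1004 CPM with Aβ40 and 961 and 933 CPM with DMSO, and Fcgr2b, the inhibitory IgG receptor, had 223 and 206 CPM with Aβ40 and 177 and 187 CPM with DMSO. The log2 fold changes were 0.11 (SE 0.18) for Fcer1g and 0.24 (SE 0.17) for Fcgr2b. Of 13 factors that act at the octamer of V promoters or at the immunoglobulin enhancers, 0 rose and 0 fell. Their median was 0.20, with 8 above 0 and 5 below, where 51.1% of all genes tested were above 0. In 53.8% of the 13 both Aβ40 libraries exceeded both DMSO libraries and in 38.5% both lay below, so the median covers a split. Ebf1, Pax5 and Pou2af1, at 1.62, 1.54 and 1.39, are also in the B lineage list.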

How the data were processed

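RNA of 4 libraries was measured, 2 per group. The authors deposited raw read counts per gene and FPKM (fragments per kilobase, scaled to depth) per gene for 54532 genes. Per the labels' protocols, a Qiagen kit gave total RNA and an Illumina kit the libraries. Tools named in the submitters' processing notes are featureCounts 1.5.0-p3 and HISAT2 2.0.5, with the build mm10. Strandedness, read length, annotation release and the handling of reads that match several genes were not found in the sources used. Rearranged and mutated V reads may align less well than constant reads, which was not tested.

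Deposited counts were fitted with edgeR 4.0.16 in R 4.3.3 (filterByExpr, TMM, glmQLFit and glmQLFTest, group only, 2-sided, Benjamini-Hochberg over 13479 genes, called at an adjusted p under 0.05). The fit had 2 residual and 6.88 prior degrees of freedom and was tested on simulated data. No blank or summary row was present. CPM are TMM-scaled. Members and lists were chosen with earlier results of these data known. Text names all constant members, the 4 V and 2 J or D segments of highest summed count per locus (members only), the V segments of lowest and highest log2 fold change with at least 100 counts, and called or preset genes of the lists, of which some are not reported here. Sequences are from GENCODE M21 transcripts, in which all 264 immunoglobulin rows matched by identifier and position. Promoters and proteins of these segments were not used here. Alternatives were other scalings, DESeq2 1.42.0, limma 3.58.1 (voom, or log2 of FPKM plus 1 or 0.1), no low-count filter, a minimum mean count of 10, a summed count of at least 40, the replicate number as a block, and each library left out.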

Additional observations from a re-analysis of the deposited data

How the results depend on the processing

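The counts of calls depended on the test and on single libraries. Genes called over the whole table numbered 17, against 129 with DESeq2, 255 with no filter, 0 with limma on log2(FPKM + 1) and 0 on log2(FPKM + 0.1), and from 0 to 1093 with each library left out. Members called numbered 2, against 6 with DESeq2, 9 with no filter, 0 with limma on either FPKM scale, and from 0 to 24 with each library left out. Both called members were Ighd and Iglc3, which were also called under every other scaling, limma-voom, a mean count of at least 10 and the replicate block. The median log2 fold change of members tested, 0.76, ran from 0.36 to 1.41 with each library left out. With an arm of 1 library, that library is assumed to vary like the others. The cause of these shifts was not tested.

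Deviations of same-numbered libraries had a correlation of −0.187 over 13479 genes, which gives no sign of pairing by number. With 2 libraries per group this value cannot show whether libraries were paired, and the labels do not say. The replicate block gave 27 genes and 2 members. With the numbers crossed, an alternative chosen after seeing the data, it gave 721 genes and 12 members.

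The effective number of heavy V segments was 3.67 higher with Aβ40 than with DMSO, and reversed to −4.56 without DMSO 1. Over the libraries left out it ran from −4.56 to 11.9. Of 736 log2 fold changes of 46 named genes under the alternatives, 11 turned sign, all of genes that did not pass. Over the libraries left out, Igha ran from −0.21 to 0.17, Ighv1-26 from −0.022 to 2.92, Ighv3-6 from −0.038 to 0.061, Igkv9-124 from −0.44 to 0.11, Igkv4-59 from −0.26 to 2.57, Iglj1 from −2.55 to 0.60, Jchain from −0.17 to 0.68 and Xbp1 from −0.036 to 0.21. With total counts only, Ighv3-6 stood at −0.030. Low counts left 60 V and J members untested, and what made them low was not tested.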

Other observations

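The V members too low to test were also counted. The 32 heavy V members among them had 171 and 167 counts in the Aβ40 libraries and 62 and 195 in the DMSO libraries, so DMSO 2 was the highest library and DMSO 1 the lowest. The 26 kappa V members had 189 and 187 counts in the Aβ40 libraries and 59 and 123 in the DMSO libraries.

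A few single V segments had large fold changes on small counts, and they are named here after their values were seen. Ighv6-3 had 36 and 49 counts in the Aβ40 libraries and 1 and 7 in the DMSO libraries, a log2 fold change of 3.40 (SE 0.81, adjusted p = 0.228 by the edgeR quasi-likelihood test with Benjamini-Hochberg adjustment). Ighv1-15 had 13 and 16 counts with Aβ40 and 0 and 2 with DMSO. Ighv1-85 had a negative value, with 9 and 5 counts with Aβ40 and 28 and 29 with DMSO, a log2 fold change of −1.95 (SE 0.70). The Igkv4 family took 7.96% and 6.46% of kappa V counts with Aβ40 and 2.98% and 5.23% with DMSO.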
